A study of Homo sapiens with 6 samples.

Results

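A set of genes that mark the epithelial and the mesenchymal state of a carcinoma cell were examined in SW480 cells that carried either a control transgene or a truncated form of ZC3H18. The members were named by symbol, with no measured value in the rule, and their TPM values (transcripts per 1000000, a level per transcript length within a library) were summed by gene symbol in all 6 libraries. They are 10 of the 28307 symbols in the gene tables. The 5 epithelial members are CDH1, EPCAM, KRT8, KRT18 and KRT19, and the 5 mesenchymal members are VIM, ZEB1, SNAI2, CDH2 and FN1. Of the 10 members 9 passed the filter of a mean of at least 1 TPM and were tested, among 13300 genes, and CDH2 did not pass it.

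SW480 is an established human colon adenocarcinoma line. The Clover group (3 libraries) carried a lentiviral vector in which the CMV promoter drives Clover, a green fluorescent protein, and served as the control. The Z18trunc group (3 libraries) carried the same kind of vector with ZC3H18 cut short before the domain that recruits RNA surveillance factors. ZC3H18 takes part in nuclear RNA surveillance, and the question behind the pair of lines is which RNAs differ when the truncated protein is present. Both groups were selected with puromycin as stable lines, and both kept their own copies of ZC3H18, so the comparison is of an added truncated protein and not of a loss. The RNA was polyadenylated and sequenced with strand kept.

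Epithelial cells hold to each other through E-cadherin junctions and are filled with keratin filaments. In the epithelial to mesenchymal transition, transcription factors of the SNAI and ZEB families repress E-cadherin and other junction genes through E-box elements, while vimentin, fibronectin and often N-cadherin appear. Carcinoma lines can also hold both programs at once, and members of the miR-200 family, which are known to repress ZEB1, tie the factors to the epithelial state.

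The libraries held 18226033 to 22463310 aligned fragments. ZC3H18 itself (chr16:88570403-88631964, hg38, plus strand) was at 58.4, 51.3 and 61.8 TPM with Clover and at 752, 739 and 798 TPM with Z18trunc. The means were 57.2 ± 5.39 and 763 ± 31.2 TPM (SD, n = 3 each), a difference of 3.72 on the log2(TPM + 1) scale (limma adjusted p = 3.2e-05). Every Z18trunc library was far above every Clover library, as labelled, and the tables do not separate the transgene from the cells' own gene. Clover replicate 2 held the lowest TPM of the 6 libraries for 47.8% of the genes tested, against 7.64% to 13.0% for each of the other libraries. Over all genes tested the median log2 difference was 0.11, and 68.0% of genes had a higher mean with Z18trunc. Centring each library on its median moved that median to -0.06, and the genes with an unadjusted p below 0.05 went from 3404 higher and 386 lower to 1357 higher and 2460 lower, so small differences are given below beside this shift. In limma's test 2 genes were called at an adjusted p below 0.05, which is 0.015% of those tested.

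The colon identity of the line was only partly visible. Of 9 colon epithelium markers 3 had a mean above 1 TPM. EPCAM led them, CDX2, the intestinal homeobox factor, stood at 41.8 to 49.6 TPM, and VIL1, the microvillus protein villin, at 10.1 to 14.8 TPM. CDX1, KRT20 and PHGR1 were listed at 0 in every library, and LGALS4 and CDH17 were at or close to 0. The 9 summed to 349 to 378 TPM with Clover and to 398 to 430 TPM with Z18trunc, a sum made mostly of EPCAM. Markers of other cell types were mostly low, apart from the alpha globins. The 7 fibroblast markers summed to 2.03 to 2.28 TPM with Clover and to 1.65 to 2.28 TPM with Z18trunc, with COL3A1, DCN and PDGFRA listed at 0 and only COL1A1 above 1 TPM. The 7 leukocyte markers summed to 5.41 to 5.57 and to 3.91 to 5.54 TPM, with 2 above 1 TPM and PTPRC and MS4A1 listed at 0. The 4 endothelial markers stayed below 1 TPM, the 3 erythroid markers summed to 45.0 to 47.4 and 38.9 to 47.1 TPM with HBA1 at 23.2 to 27.2, HBA2 at 15.8 to 20.5 and HBB listed at 0, and the 5 melanocyte markers, of the other line the study used, summed to 2.66 to 3.79 and 3.24 to 4.94 TPM with MLANA and TYR listed at 0.

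SW480 libraries carried an epithelial keratin program and vimentin side by side. On the TPM scale KRT18 had the highest mean of all 28307 symbols and KRT8 ranked 4, KRT19 ranked 67, VIM 267 and EPCAM 493. Further down, FN1 ranked 4610, CDH1 7196, SNAI2 11980 and ZEB1 13169. The order KRT18, KRT8, KRT19, VIM, EPCAM, FN1, CDH1, SNAI2, ZEB1, CDH2 was the same in 6 of 6 libraries. Between neighbours in that order only the ranges of SNAI2 and ZEB1 overlapped over the libraries.

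**Figure D1:**
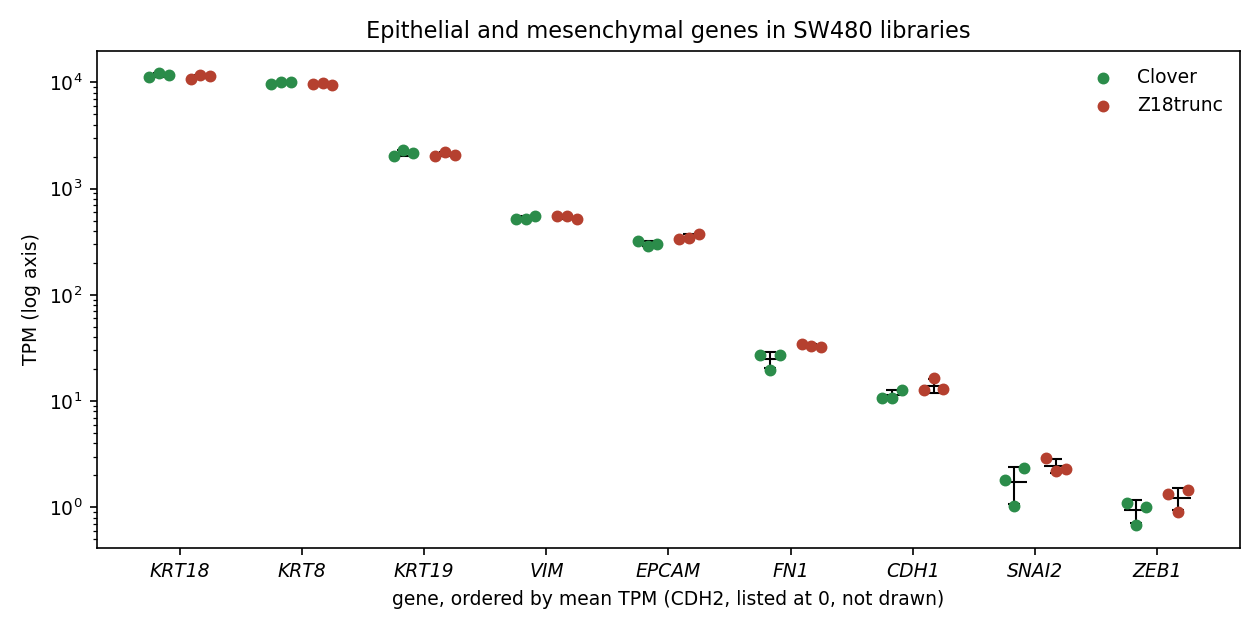
TPM of 9 genes on a log axis, with 1 point for each library (Clover green, Z18trunc red) and the mean ± SD of each group in black. The genes fall from 10842 TPM or more for KRT18 to 1.47 TPM or less for ZEB1, and within each gene the 2 groups lie close together. CDH2 was listed at 0 and is not drawn.

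None of the 9 members tested was called in limma's test, and 6 had a higher and 3 a lower mean with Z18trunc. Unadjusted p was below 0.05 for 2 members, EPCAM and FN1, both higher, against 25.6% of all genes tested for a higher value and 2.9% for a lower one. The groups did not overlap for the same 2 members, both higher, and for 0 members lower, against 30.1% and 6.73% of all genes. The 2 members are 22.2% of the 9 tested, a share below that of all genes for a higher value. Without Clover replicate 2 the unadjusted count was 1, FN1, and the groups of the same 2 members still did not overlap, beside 19.4% and 32.5% of all genes for a higher value. The median log2 difference of the members was 0.21, beside 0.11 over all genes, and without Clover replicate 2 it was 0.11, beside 0.07. Both member medians are the values of ZEB1, which passed the filter only through the Z18trunc group. A limma fit with an intensity trend also called 0 members. In bulk RNA of this kind, fewer cells that use a gene and less of its RNA per cell cannot be told apart.

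CDH1 encodes E-cadherin, the adhesion receptor of the adherens junction (chr16:68737292-68835536, plus strand). Its level was 10.8, 10.6 and 12.9 TPM in the Clover libraries and 12.6, 16.5 and 13.0 TPM in the Z18trunc libraries. Clover replicate 3 lay above Z18trunc replicate 1, so the groups overlapped. The means were 11.4 ± 1.24 and 14.0 ± 2.15 TPM (SD, n = 3 each), a log2 difference of 0.27 (SE 0.13, 95% interval -0.03 to 0.57, limma adjusted p = 0.209). It was 0.16 without Z18trunc replicate 2 (limma adjusted p = 0.435), 0.11 with median centring and 0.09 under quantile normalization.

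EPCAM, a cell surface adhesion protein of epithelia (chr2:47369311-47387020, plus strand), stood more than an order of magnitude above CDH1. It was at 319, 289 and 300 TPM with Clover and at 336, 345 and 375 TPM with Z18trunc, and every Z18trunc library was above every Clover library. The means were 302 ± 15.4 and 352 ± 20.6 TPM (n = 3 each), a log2 difference of 0.22 (SE 0.08, interval 0.03 to 0.41, unadjusted p = 0.0293, limma adjusted p = 0.135). With each library centred on its median the difference was 0.05 (limma adjusted p = 0.612). The EPCAM to CDH1 ratio was 26.7 ± 3.17 with Clover and 25.5 ± 4.17 with Z18trunc, and the groups overlapped.

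KRT8 and KRT18 are the type II and type I keratins that pair into the filaments of simple epithelia, and they are neighbours on chromosome 12. KRT8 (chr12:52897191-52949860, minus strand) and KRT18 (chr12:52948871-52952906, plus strand) overlap by 990 bp on opposite strands, where only strand separates their reads. KRT8 was at 9701, 10116 and 9993 TPM with Clover and at 9576, 9774 and 9394 TPM with Z18trunc. KRT18 was at 11223, 12124 and 11573 TPM with Clover and at 10842, 11587 and 11515 TPM with Z18trunc. The groups overlapped for both genes. The log2 difference was -0.05 for KRT8 (SE 0.06, interval -0.21 to 0.10, limma adjusted p = 0.632) and -0.04 for KRT18 (SE 0.07, interval -0.21 to 0.13, limma adjusted p = 0.739). With median centring they were -0.22 and -0.21 (limma adjusted p = 0.153 and 0.179).

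The ratio of KRT18 to KRT8 was 1.17 ± 0.0237 with Clover and 1.18 ± 0.0469 with Z18trunc (n = 3 each), with a range of 1.13 to 1.23 over the 6 libraries. Together they made up 2.04% to 2.22% of all TPM in a library. Clover replicate 2 was the highest library for KRT8, KRT18 and KRT19, and the lowest for CDH1, EPCAM, ZEB1, SNAI2 and FN1.

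KRT19, a type I keratin of simple and ductal epithelia (chr17:41523617-41528308, minus strand), was at 2009, 2316 and 2148 TPM with Clover and at 2044, 2203 and 2058 TPM with Z18trunc. The Z18trunc values lay inside the Clover range. The log2 difference was -0.04 (SE 0.08, interval -0.23 to 0.16, limma adjusted p = 0.803). Its sign turned to 0.02 without Clover replicate 2 and to 0.04 under quantile normalization.

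VIM encodes vimentin, the intermediate filament of mesenchymal cells (chr10:17228241-17237593, plus strand). It was at 512, 513 and 552 TPM with Clover and at 557, 552 and 519 TPM with Z18trunc, and the groups overlapped. The log2 difference was 0.05 (SE 0.07, interval -0.13 to 0.22, limma adjusted p = 0.710), and it turned to -0.12 with median centring and to -0.02 on FPKM values. The VIM to CDH1 ratio was 46.2 ± 2.85 with Clover and 39.2 ± 5.41 with Z18trunc, and the VIM to EPCAM ratio was 1.74 ± 0.123 and 1.55 ± 0.144. Both ratios overlapped between the groups.

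FN1 encodes fibronectin, a secreted matrix glycoprotein (chr2:215360865-215436068, minus strand), and of the members it had the largest difference on the log2 scale. It was at 27.2, 19.7 and 27.1 TPM with Clover and at 34.3, 33.2 and 32.2 TPM with Z18trunc. All 3 Z18trunc libraries were above all 3 Clover libraries, and Clover replicate 2 lay below the other Clover libraries. The means were 24.7 ± 4.27 and 33.2 ± 1.03 TPM, a ratio of 1.35 and a log2 difference of 0.43 (SE 0.13, interval 0.12 to 0.74, unadjusted p = 0.0142, limma adjusted p = 0.0991). Without Clover replicate 2 the difference was 0.28 (SE 0.06, limma adjusted p = 0.124), the groups still did not overlap, and with median centring it was 0.26 (limma adjusted p = 0.158). Set against VIM, FN1 was at 4.69% ± 0.754 of the VIM level with Clover and at 6.12% ± 0.0898 with Z18trunc, and these groups did not overlap either.

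CDH2, which encodes N-cadherin, the cadherin that replaces E-cadherin in many mesenchymal cells (chr18:27950966-28177130, minus strand), was listed at 0 in all 6 libraries, in TPM and in coverage, and no comparison was made.

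**Figure D2:**
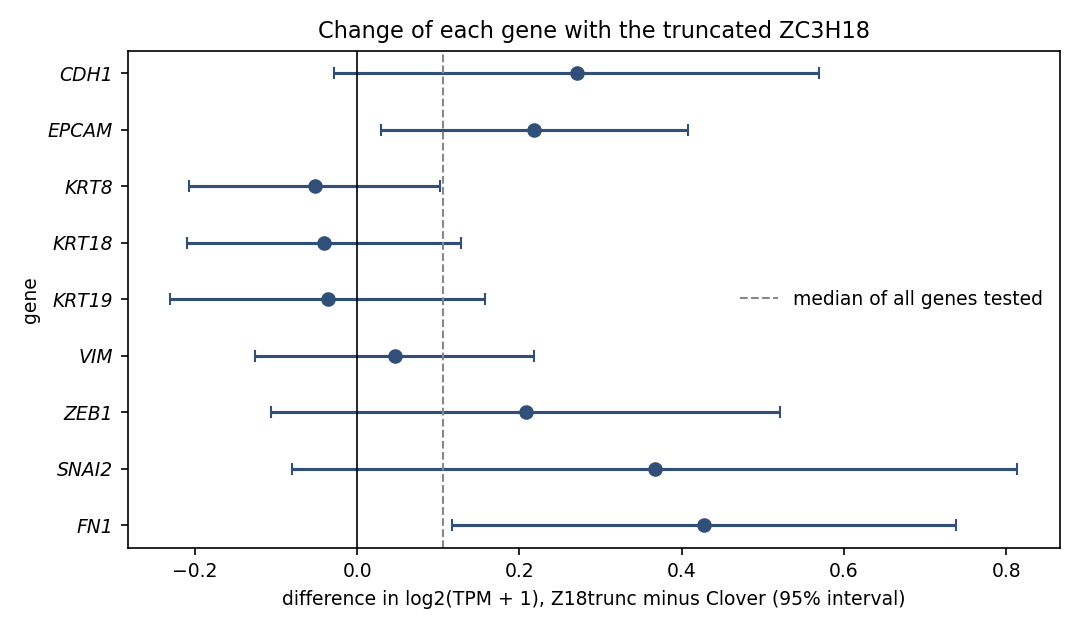
Difference in log2(TPM + 1) between Z18trunc and Clover for the 9 genes tested, with the 95% interval of the limma fit. The intervals of EPCAM (0.03 to 0.41) and FN1 (0.12 to 0.74) lie above 0, and the dashed line at 0.11 is the median of all genes tested. The interval of FN1 begins next to that line.

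SNAI2 and ZEB1 are the transcription factors among the members. SNAI2 encodes the zinc finger repressor SLUG, a repressor of E-cadherin (chr8:48917598-48921429, minus strand). It was at 1.83, 1.04 and 2.35 TPM with Clover and at 2.91, 2.20 and 2.32 TPM with Z18trunc, and the groups overlapped because Clover replicate 3 lay above 2 of the Z18trunc libraries. The log2 difference was 0.37 (SE 0.19, interval -0.08 to 0.81, limma adjusted p = 0.249). It was 0.17 without Clover replicate 2 (limma adjusted p = 0.476) and 0.20 with median centring.

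ZEB1 encodes a zinc finger and homeodomain repressor that binds E-boxes (chr10:31318417-31529804, plus strand). It was at 1.11, 0.680 and 1.02 TPM with Clover and at 1.34, 0.912 and 1.47 TPM with Z18trunc. Z18trunc replicate 2 lay below 2 of the Clover libraries. The means were 0.937 TPM with Clover and 1.24 TPM with Z18trunc, so ZEB1 passed the filter of 1 TPM only through the Z18trunc group. The log2 difference was 0.21 (SE 0.13, interval -0.11 to 0.52, limma adjusted p = 0.342). It was 0.11 without Clover replicate 2 (limma adjusted p = 0.650), 0.04 with median centring and 0.37 with a pseudocount of 0.1 TPM.

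The ZEB1 level is less certain than those of the other members. The tables also give coverage, the mean read depth per base, and TPM per unit of coverage was 0.43 to 0.54 for the other members with reads, beside a median of 0.44 over 12465 genes. For ZEB1 it was 4.03, a value reached by 2.57% of genes, and its coverage was only 0.177 to 0.370 per base, against 2.43 to 7.44 for SNAI2. At the median of 0.44 TPM per unit of coverage, ZEB1 would lie below the filter of 1 TPM in both groups. Its rank, its test and the member medians rest on the listed TPM. ZEB1-AS1, a noncoding gene on the opposite strand that overlaps ZEB1 by 2031 bp, was at 2.98 to 4.78 TPM. VIM-AS1, the antisense neighbour of VIM, was at 0.531% of the VIM level.

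**Figure D3:**
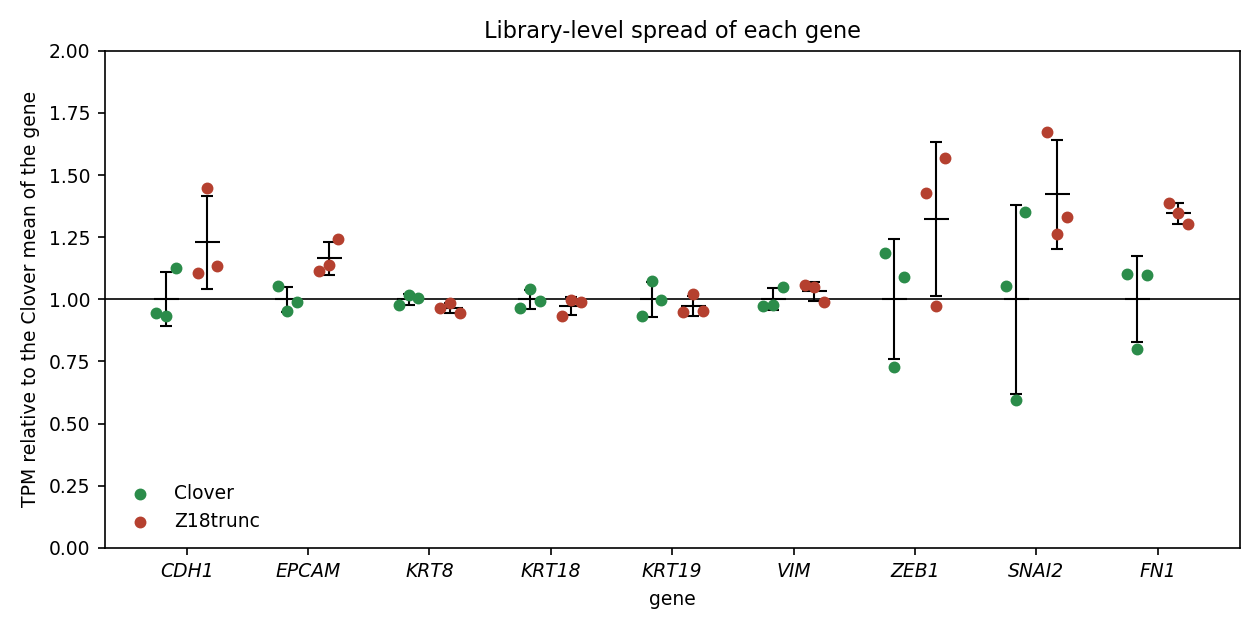
TPM of each gene in each library divided by the gene's own Clover mean, with the mean ± SD of each group in black. The keratins and VIM stay close to 1 in every library, EPCAM and FN1 are separated between the groups, and ZEB1 and SNAI2 have the widest spread.

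Among the members with the lowest levels, ZEB1 is known for its repression by the miR-200 family, whose mature RNAs were not measured here. The following RNAs are shown because they carry the 2 seeds of the family, with bases 2 to 8, the seed, in capitals (RefSeq, GRCh38.p14).
miR-200a-3p: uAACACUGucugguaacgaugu
miR-200c-3p: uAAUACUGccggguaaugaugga

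miR-141-3p shares the seed of miR-200a-3p, and miR-200b-3p and miR-429 share that of miR-200c-3p. The 3′ UTR of ZEB1 in GENCODE 44 (3143 bases, plus strand, hg38) held 9 matches to these seeds, 3 of the miR-200a type and 6 of the miR-200c type. The 4 that are followed by an A opposite base 1 of the miRNA are shown, with the seed match in capitals.
chr10:31527618-31527640: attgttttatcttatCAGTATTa
chr10:31528492-31528514: ctgatttttacctatCAGTATTa
chr10:31528562-31528584: tgtcttcaaacctggCAGTATTa
chr10:31528782-31528804: tgagatttgatttaaCAGTGTTa

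The genes of the family were chosen after their values were seen. MIR200CHG, the host transcript of miR-200c and miR-141, was at 7.56, 4.81 and 5.36 TPM with Clover and at 5.96, 6.25 and 6.36 TPM with Z18trunc. The groups overlapped, with a log2 difference of 0.08 (SE 0.15, limma adjusted p = 0.764). The rows of the hairpin genes themselves are short and their values scatter. MIR200A was at 0.06, 0 and 0 TPM with Clover and at 0.827, 0.597 and 2.26 TPM with Z18trunc, without overlap, and was not tested at its mean below 1 TPM. MIR200B was at 1.07, 0.432 and 0.261 TPM with Clover and at 1.03, 2.05 and 3.01 TPM with Z18trunc, with overlap and a log2 difference of 0.91 (SE 0.28, unadjusted p = 0.0150, limma adjusted p = 0.1002). With a Clover mean of 0.586 TPM, MIR200B passed the filter of 1 TPM only through the Z18trunc group, so its p is no fair test. MIR429 was at 8.88, 6.15 and 1.44 TPM with Clover and at 0.698, 1.62 and 3.13 TPM with Z18trunc, with overlap and a log2 difference of -1.08 (SE 0.55, limma adjusted p = 0.251). These gene rows are not levels of mature miRNAs. A seed match is a description of the letters and no measure of repression.

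The sequence before the FN1 start is printed because FN1 had the largest difference of the members. It spans the 250 bases upstream of the start at chr2:215436069-215436318, minus strand, from RefSeq (GRCh38.p14), with the cAMP response element TGACGTCA and the GC box GGGCGG, searched on both strands, in capitals.
FN1: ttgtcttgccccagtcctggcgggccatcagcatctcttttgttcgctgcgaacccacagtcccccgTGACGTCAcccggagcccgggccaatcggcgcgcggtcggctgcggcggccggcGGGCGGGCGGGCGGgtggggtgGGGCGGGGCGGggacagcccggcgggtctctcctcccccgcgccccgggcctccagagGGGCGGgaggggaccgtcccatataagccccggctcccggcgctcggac

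The cAMP response element began 183 bases before the start and occurs in 1.65% of all 35116 upstream windows of this length. GC boxes matched 6 times, some of them overlapping, and 42.6% of all windows hold at least 1. The promoter table held windows for 5 of the 10 members (KRT8, VIM, ZEB1, CDH2 and FN1). The E-box CAGGTG, the kind bound by SNAI and ZEB factors, was in 2 of the 7 windows of ZEB1 and in none of those of KRT8, VIM, CDH2 and FN1, beside 17.5% of all windows.

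Fragments from transposable elements inside the genes gave a second readout that the choice of members did not use. It comes from the same libraries, and fragments over exons belong to the transcripts behind TPM, so it is not an independent measurement. Uniquely mapped fragments on the gene's strand were summed over the elements that lie wholly inside each gene and tested with edgeR's quasi-likelihood test, for genes with at least 30 counts. Of 9734 such genes 159 (1.63%) were called, and all 159 were higher with Z18trunc, and the median log2 difference was 0.25. TMM scaling moved that median to 0.01 and the calls to 4, and without Clover replicate 2 there were 11 calls. Of the 10 members 5 could be tested (CDH1, EPCAM, KRT8, KRT19 and ZEB1), and 0 were called. Unadjusted p was below 0.05 for 1 of them, KRT8, which was higher, against 15% of all genes for a higher and 0.709% for a lower value. For CDH1, KRT8 and ZEB1 every Z18trunc library was above every Clover library, against 18.5% of all genes for a higher and 1.81% for a lower value.

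Elements inside CDH1 gave 59, 54 and 54 fragments with Clover and 67, 73 and 81 with Z18trunc. Per 1000000 aligned fragments this was 2.73 ± 0.0993 and 3.62 ± 0.552 (n = 3 each), with no overlap and a log2 difference of 0.40 (edgeR adjusted p = 0.368). It ran from 0.16 with DESeq2, beside an all-gene median of 0.01, to 0.52 without Z18trunc replicate 1. Most of these fragments came from 2 Alu elements that lie wholly in the annotated 3′ UTR. The AluJr at chr16:68834274-68834516 gave 26, 26 and 29 fragments with Clover and 36, 32 and 36 with Z18trunc. The AluJb at chr16:68833961-68834253 gave 24, 20 and 23 fragments with Clover and 26, 37 and 30 with Z18trunc. Together the elements over CDH1 exons gave 2.43 ± 0.212 with Clover and 3.23 ± 0.518 with Z18trunc per 1000000 aligned fragments.

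Elements inside KRT8 gave 169, 184 and 148 fragments with Clover and 243, 185 and 214 with Z18trunc. Per 1000000 aligned fragments this was 8.23 ± 1.20 and 10.4 ± 0.376, with no overlap and a log2 difference of 0.34 (unadjusted p = 0.0192, edgeR adjusted p = 0.217). This is 0.09 above the median of all genes, and with TMM scaling and DESeq2 it was 0.10. Elements in KRT8 introns gave 5.88 ± 1.39 with Clover and 7.25 ± 0.421 with Z18trunc per 1000000 aligned fragments, and these groups overlapped. Those over exons gave 2.35 ± 0.202 and 3.13 ± 0.797 without overlap, with Z18trunc replicate 1 at 4.05 and the others at 2.63 and 2.71. On the TPM scale KRT8 had a difference of the other sign, -0.05, and overlapping groups. The cause of the opposite signs was not tested. ZEB1, whose TPM is uncertain, gave 22, 15 and 24 fragments with Clover and 30, 23 and 33 with Z18trunc. The groups did not overlap per 1000000 aligned, and the log2 difference was 0.48 (edgeR adjusted p = 0.481), or 0.24 with TMM scaling.

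EPCAM elements gave 79, 60 and 56 fragments with Clover and 67, 60 and 68 with Z18trunc. The groups overlapped, and the log2 difference rounded to 0.00 in size (edgeR adjusted p = 0.998), or -0.24 with TMM scaling. KRT19 elements gave 44, 58 and 54 fragments with Clover and 61, 37 and 34 with Z18trunc. These groups overlapped as well, with a log2 difference of -0.27 (edgeR adjusted p = 0.631), which was -0.50 with TMM scaling and -0.10 without Z18trunc replicate 3. A MIRb element over a KRT19 exon (chr17:41525655-41525806) gave 15, 13 and 13 fragments with Clover and 12, 3 and 4 with Z18trunc. VIM had 21 and FN1 22 fragments over all libraries, too few for the test, and FN1's split into 1, 4 and 0 with Clover and 7, 4 and 6 with Z18trunc. The tables listed 1 element inside KRT18, with 0 fragments, and 0 elements inside SNAI2 and CDH2, so these genes have no second readout.

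**Figure D4:**
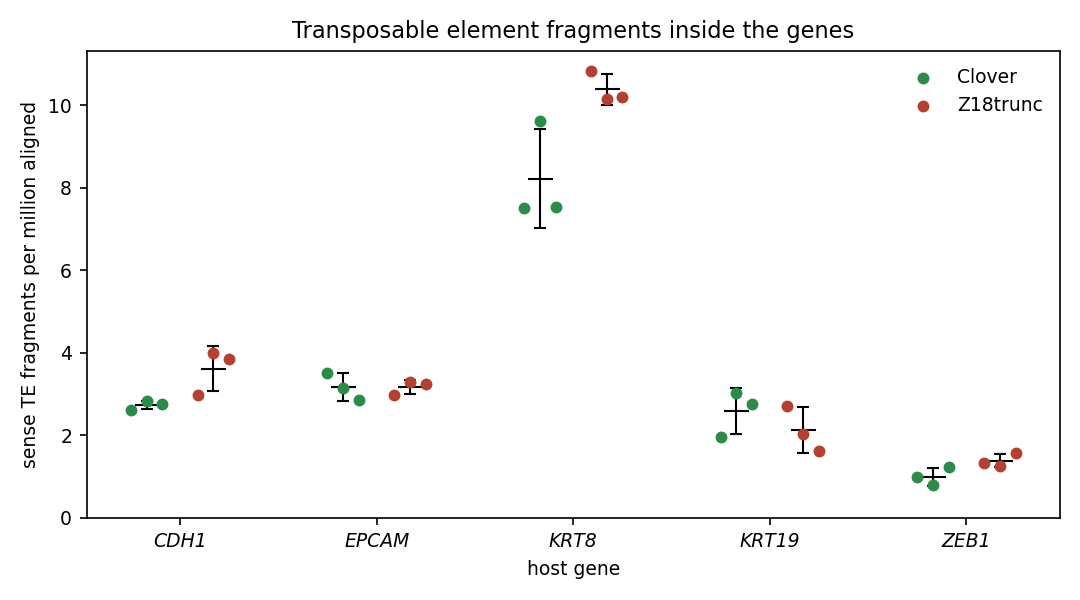
Sense fragments from transposable elements inside the 5 genes tested, per 1000000 aligned fragments, with 1 point for each library and the mean ± SD of each group in black. KRT8 has the most fragments, and for CDH1, KRT8 and ZEB1 the Z18trunc libraries lie above the Clover libraries.

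The wider programs around the members were read in 5 lists. In each list the 3 most abundant genes were named, and the 3 with the largest difference among genes of at least 5 TPM without overlap. For the latter the lack of overlap is part of the rule and no result. Their large differences and low p are likewise picked by the rule. Of 45 epithelial junction and regulator genes 38 were tested, and 25 had a higher and 13 a lower mean with Z18trunc, with a median log2 difference of 0.14. Limma called 0 of them, 12 had an unadjusted p below 0.05 and a higher value, and 1 a lower one, against 25.6% and 2.9% of all genes. The groups did not overlap for 14 higher and 2 lower genes, against 30.1% and 6.73% of all genes. Without Clover replicate 2 the median was 0.07, as it was over all genes, and 10 higher genes and 1 lower gene had an unadjusted p below 0.05. Of all genes 19.4% then had such a p and a higher value. ESRP1, a splicing regulator of the epithelial state, was at 25.3, 24.9 and 21.5 TPM with Clover and at 33.2, 36.0 and 44.4 TPM with Z18trunc, a log2 difference of 0.63 (limma adjusted p = 0.0773). DSP, the desmosomal plaque protein desmoplakin, differed by 0.59 (limma adjusted p = 0.0793) and CLDN1, a tight junction claudin, by 0.57 (limma adjusted p = 0.0773). In both every Z18trunc library was above every Clover library, which the naming rule required. The most abundant genes of the list were SPINT2, a membrane-associated protease inhibitor, with a difference of -0.09, and the catenins CTNNB1 (0.19) and CTNNA1 (0.14), which link cadherins to the cytoskeleton.

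When only genes with a mean of at least 5 TPM were tested, limma called 6 epithelial genes, all higher with Z18trunc, at adjusted p of 0.0486 to 0.0488. CLDN1, CTNND1, DSG2, ESRP1 and PATJ were among them. That filter raised the number of genes called to 474 of the 9973 tested (4.75%), of which 453 were higher, and no member was called.

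The mesenchymal matrix, adhesion and contractile list had 25 of 40 genes tested, 15 higher and 10 lower, with a median of 0.03. Limma called 0, and an unadjusted p below 0.05 was found for 6 higher and 3 lower genes, against 25.6% and 2.9% of all genes. Without Clover replicate 2 these counts were 4 and 1, against 19.4% of all genes for a higher value, and the median was -0.01. With all 6 libraries the groups did not overlap for 6 higher and 3 lower genes, against 30.1% and 6.73% of all genes. ITGAV, the alpha v integrin, was at 9.84, 7.53 and 8.45 TPM with Clover and at 12.5, 13.5 and 13.2 TPM with Z18trunc, a log2 difference of 0.56 (limma adjusted p = 0.0773). ITGB1, the beta 1 integrin that with other subunits forms the main fibronectin receptor, differed by 0.43 (limma adjusted p = 0.0835), and CALD1, an actin-binding regulator of contraction, by 0.35 (limma adjusted p = 0.0991). The groups did not overlap for any of these 3 genes, which the naming rule required. S100A4, a calcium-binding protein tied to cell motility, was lower in all Z18trunc libraries (2393 to 2547 against 2589 to 2993 TPM), with a log2 difference of -0.15 (limma adjusted p = 0.279). CD44, a hyaluronan receptor, had a difference of 0.06 and overlapping groups, and its sign turned to -0.10 with median centring.

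Of 24 other transcription factors and cofactors of the transition 16 were tested, 13 higher and 3 lower, with a median of 0.14. Limma called 0, while 5 had an unadjusted p below 0.05, all higher, against 25.6% of all genes higher and 2.9% lower. Without Clover replicate 2 that count was also 5, against 19.4% of all genes for a higher value, and the median was 0.10. With all 6 libraries the groups did not overlap for 8 higher and 0 lower genes, against 30.1% and 6.73% of all genes. TEAD1, a DNA-binding partner of YAP, was at 23.8, 16.5 and 22.4 TPM with Clover and at 32.5, 31.9 and 37.3 TPM with Z18trunc, a difference of 0.69 (limma adjusted p = 0.0773). TEAD4, of the same family, differed by -0.03 with overlapping groups. EZH2, a histone methyltransferase, differed by 0.41 (limma adjusted p = 0.0773) and HDAC2, a histone deacetylase, by 0.36 (limma adjusted p = 0.0823). The corepressor CTBP1 differed by -0.05 and HDAC1 by 0.14.

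In the TGF-beta pathway, a known inducer of the transition, 23 of 27 genes were tested, 19 higher and 4 lower, with a median of 0.13. TGFB2, SMAD4, NODAL and INHBA were under the filter, with SMAD4 at a mean of 0.166 TPM. Limma called 0, and 5 had an unadjusted p below 0.05 with a higher value and 1 with a lower one. Over all genes these shares were 25.6% and 2.9%. Without Clover replicate 2 the counts were 3 and 1, against 19.4% of all genes for a higher value, with a median of 0.06. Over all 6 libraries 5 higher and 3 lower genes had groups without overlap, against 30.1% and 6.73% of all genes. The ligand TGFB1 was lower in every Z18trunc library, with a difference of -0.15 (limma adjusted p = 0.201), as was LTBP3, which holds the latent ligand, at -0.09 (limma adjusted p = 0.418). The receptor TGFBR1 was at 13.9 ± 1.71 TPM with Clover and at 19.1 ± 0.64 TPM with Z18trunc (n = 3 each) without overlap, a difference of 0.44 (limma adjusted p = 0.0793). BMPR2, a receptor for bone morphogenetic proteins, differed by 0.32 and SMURF2, a ubiquitin ligase of the pathway, by 0.37, both without overlap. For TGFBR1, BMPR2 and SMURF2 the naming rule required the lack of overlap. BAMBI, a pseudoreceptor that dampens the signal, differed by 0.05 and turned to -0.12 with median centring.

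Of 52 other keratin genes 18 were tested, 6 higher and 12 lower, with a median of -0.07. Limma called 0, and an unadjusted p below 0.05 was found for 2 lower and 0 higher genes, against 2.9% and 25.6% of all genes. Without Clover replicate 2 these counts were 3 and 0, against 398 and 2576 of all 13300 genes, and the median was -0.02. Over all 6 libraries 3 lower and 0 higher keratins had groups without overlap, against 6.73% and 30.1% of all genes. KRT81, a hair keratin, was at 220, 247 and 240 TPM with Clover and at 174, 175 and 188 TPM with Z18trunc, a log2 difference of -0.39 (limma adjusted p = 0.0773), and it was called with the filter of 5 TPM and with an intensity trend (limma adjusted p = 0.0486 and 0.0439). KRT38 (-0.22) and KRT74 (-0.13) were lower without overlap, which the naming rule required. KRT5, a keratin of basal epithelia, had the highest mean of the other keratins at 5515 to 6610 TPM, with a difference of 0.09 and overlapping groups. KRT23 differed by -0.06.

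**Figure D5:**
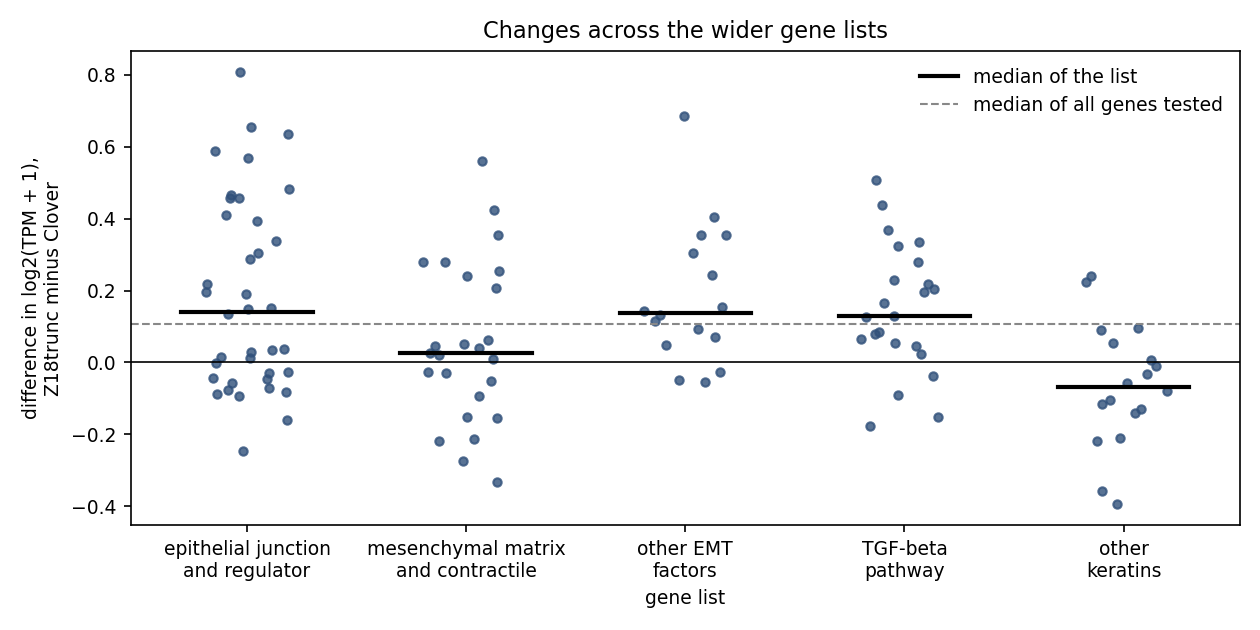
Difference in log2(TPM + 1) between Z18trunc and Clover for each gene tested in the 5 lists, with the median of each list as a black bar and the median of all genes (0.11) dashed. The medians run from -0.07 for the other keratins to 0.14 for the epithelial list, and points are spread sideways at random only to separate them.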

How the data were processed

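SW480 polyadenylated RNA was sequenced with strand kept, 3 libraries for each group, made from lines that the study set up in biological triplicate. The submitters' processing notes name cutadapt 4.6 and hg38. The authors deposited gene tables with TPM, FPKM and coverage (a per-base signal) and, for each transposable element locus, uniquely mapped counts and estimated counts that share out multiply mapped reads. By the study's methods SQuIRE was run on the reads against hg38, and the gene tables have the layout of StringTie. The versions of SQuIRE, StringTie and the aligner in these runs are not given in the sources used here. The library total is the deposited count of aligned fragments. The gene tables hold no counts, so the number of reads behind a TPM value is not given, only its coverage.

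TPM was summed by symbol and tested as log2(TPM + 1), a scale that understates changes of low genes, with limma 3.58.1 (R 4.3.3) over genes with a mean of at least 1 TPM and Benjamini-Hochberg adjustment over all of them. Sense element counts (bedtools 2.31.1, GENCODE 44 for exons) were tested with edgeR 4.0.16 at a minimum of 30 counts, and estimated counts were rounded for an alternative. DESeq2 1.42.0, other scalings, filters, leave-one-out fits and a replicate block were alternatives. Both tests were checked on simulated data with planted changes larger than the member differences. That check does not bear on differences of the size reported here. The members and lists were chosen with earlier results of these data known. In each list the 3 genes with the highest mean and the 3 with the largest difference among genes of at least 5 TPM without overlap were named. Some genes named by this rule are not reported here.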

Additional observations from a re-analysis of the deposited data

How the results depend on the processing

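The 151 member differences recomputed under 17 other settings of the TPM fit gave 0 calls, and 4 had the other sign. FN1 ranged from 0.26 to 0.50 (limma adjusted p 0.0705 to 0.221) and EPCAM from 0.05 to 0.26 (0.0705 to 0.612). The number of genes called was 1 with a pseudocount of 0.1 TPM, a minimum of 0.1 TPM, TPM above 0 in any library or quantile normalization, 474 with a minimum of 5 TPM (lists: epithelial 6, mesenchymal 1, other factors 2, keratins 1), 60 with an intensity trend (keratins 1), and 1 to 4 on leaving out each library. The sign turned for KRT19 (0.0402, quantile normalization), for VIM (-0.12), CTNNA1 (-0.0288), CD44 (-0.10), HDAC1 (-0.0202), BAMBI (-0.12) and KRT5 (-0.0732) with median centring, and for VIM (-0.021), CD44 (-0.0044) and BAMBI (-0.0201) on FPKM. On leaving out each library KRT19 ranged from -0.0867 to 0.0158, CD44 from -0.0326 to 0.129 and KRT23 from -0.125 to 0.0777.

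Same-numbered libraries did not deviate together (correlations -0.04, 0.02 and -0.04). With 3 libraries in each group this cannot tell whether they were made or handled together. With a replicate block limma called 1 gene and 0 members, and edgeR called 40 genes on element fragments. The log2 difference of EPCAM on element fragments, close to 0 throughout except with TMM scaling and DESeq2, was 4.14e-05 with the replicate block, 0.0312 with estimated counts and -0.0735 to 0.0812 on leaving out each library, with an edgeR or DESeq2 adjusted p of 0.797 or more. The number of genes called on element fragments was 4 with TMM scaling (2 higher, 2 lower), 64 with estimated counts, 68 with DESeq2 (2 higher, 66 lower) and 11 to 168 on leaving out each library. The cause of these changes was not tested. ZEB1 had 15 to 33 element fragments a library, the fewest of the members tested.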
